A study of Mus musculus with 5 samples.

Results

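The data were read for 10 transcription factors that act in hepatic development: Hnf4a, Hhex, Prox1, Cebpa, Creb3l3, Onecut1, Onecut2, Nr5a2, Foxa3 and Lhx2. They were chosen by name, and all 10 were found among 12375 named loci. Poly(A) RNA was sequenced from C57BL/6J mouse embryos, with no treatment or allele in the labels: foregut and medial foregut of embryonic day 8.5 (E8.5), and 3 tissues of E10.5, namely liver with ventral and dorsal pancreas. The sources used here do not say how the tissues were isolated or whether embryos were pooled. There was 1 library per tissue. No spread between replicates was therefore available, no test was run, and the order of levels between any pair of libraries could not be set against replicate error. Values are in FPKM, which counts sequenced fragments relative to transcript length and to each 1000000 mapped, so that levels of different genes can be set side by side within a library.

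Liver and pancreas bud from neighbouring parts of the foregut endoderm, the epithelium of the embryonic gut tube. The liver bud and the ventral pancreas arise from ventral endoderm beside the heart, and the dorsal pancreas from the opposite wall. Hepatic identity is carried by a network of factors that bind each other's promoters: forkhead pioneer factors open hepatic enhancers, homeodomain factors drive outgrowth of the bud, and nuclear receptors and C/EBP factors switch on the genes of plasma proteins and metabolism. Several of these factors are also used by pancreatic progenitors.

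The E10.5 libraries carried defining genes of their labels, with genes of other cells beside them. No list of foregut genes was used, so the E8.5 labels were not checked in this way. The summed level of 14 found hepatoblast genes, of 18 listed, was 9412 FPKM for liver, 3177 for ventral and 839 for dorsal pancreas. It was 120 and 109 FPKM for foregut and medial foregut. Dlk1 (1718 FPKM in ventral and 485 in dorsal pancreas) and Ambp (612 and 188) made up most of both pancreatic sums. Gene by gene, the median was 12.4% of the liver level in ventral and 1.37% in dorsal pancreas. Of 9 pancreatic progenitor genes 7 were found, with sums of 2.65 FPKM (liver), 138 (ventral) and 153 (dorsal pancreas); Ptf1a was listed at 0 in liver and medial foregut. Of 9 cardiomyocyte genes 8 were found, and their sum was 5162 FPKM in foregut and 8849 in medial foregut, against 487 (liver), 25.1 (ventral) and 21.5 (dorsal pancreas). These are bulk tissues, so fewer cells of a type and less RNA per cell cannot be told apart. Depth in reads is unknown. Summed FPKM over all loci lay between 437581 in dorsal pancreas and 506529 in medial foregut.

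Hnf4a and Nr5a2 each have 2 RefSeq start sites with a promoter window, and the table gives 1 value over a locus that spans the whole gene, so the starts cannot be told apart here. Hnf4a is known for a start used in adult liver and another used in pancreas and in embryonic tissue. The 250 bases before each start are shown for these genes and for Onecut1, the factor with the largest excess in ventral pancreas over liver. They are from RefSeq (GRCm38.p6), 5′ to 3′ on the gene's strand, with matches to the motifs searched in capitals.
Hnf4a, chr2:163506607-163506856, plus strand: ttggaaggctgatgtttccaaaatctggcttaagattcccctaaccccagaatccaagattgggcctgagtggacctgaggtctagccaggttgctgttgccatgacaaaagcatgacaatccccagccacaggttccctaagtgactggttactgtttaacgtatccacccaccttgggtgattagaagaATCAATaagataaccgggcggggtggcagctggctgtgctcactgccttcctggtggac
Hnf4a, chr2:163546905-163547154, plus strand: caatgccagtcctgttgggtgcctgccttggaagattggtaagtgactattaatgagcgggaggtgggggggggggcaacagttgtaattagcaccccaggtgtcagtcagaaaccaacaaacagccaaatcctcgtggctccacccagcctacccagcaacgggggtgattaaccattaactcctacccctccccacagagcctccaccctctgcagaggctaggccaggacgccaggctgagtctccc
Nr5a2, chr1:136960449-136960698, minus strand: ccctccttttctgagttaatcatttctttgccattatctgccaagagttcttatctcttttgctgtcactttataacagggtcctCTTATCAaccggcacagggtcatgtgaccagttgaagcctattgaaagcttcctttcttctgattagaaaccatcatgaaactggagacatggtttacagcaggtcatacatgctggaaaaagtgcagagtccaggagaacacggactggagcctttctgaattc
Nr5a2, chr1:136953631-136953880, minus strand: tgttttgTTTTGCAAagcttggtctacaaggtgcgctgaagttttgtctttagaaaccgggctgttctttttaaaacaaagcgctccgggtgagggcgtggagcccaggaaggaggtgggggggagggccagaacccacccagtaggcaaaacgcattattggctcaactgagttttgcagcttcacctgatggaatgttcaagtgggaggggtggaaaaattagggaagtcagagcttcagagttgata
Onecut1, chr9:74861671-74861920, plus strand: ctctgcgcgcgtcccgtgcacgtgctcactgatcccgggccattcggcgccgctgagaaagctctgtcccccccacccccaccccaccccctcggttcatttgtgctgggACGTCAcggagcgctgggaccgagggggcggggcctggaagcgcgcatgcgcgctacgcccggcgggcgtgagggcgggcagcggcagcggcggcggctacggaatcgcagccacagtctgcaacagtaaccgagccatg

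The starts of Hnf4a lay 40298 bases apart and those of Nr5a2 6818 apart. The search covered windows of 300 bases (250 before to 50 after the start) on both strands. The forkhead letters were TGTTTAC, with the variant form TATTTAC. The Onecut core was ATTGAT, the C/EBP letters TTGCNNAA, and the HNF4 letters CAAAGTCCA with the variant form CAAAGTTCA. NR5A was searched as TCAAGGTCA, GATA factors as TGATAAG, and HNF1 by its palindrome. The core of the cyclic AMP response element was searched as TGACGT. Each window with a match held a single one, so no matches overlapped. Windows of 9 of the 10 factors were searched, 14 in all, and 4 of them (28.6%) had any match, against 30.4% of all 32851 windows. No window on chromosome 18, where Onecut2 lies, was included for the factors. The first Hnf4a window holds the Onecut core on the minus strand, with its first base at -59 from the start; 7.54% of all windows hold those letters. Among the Nr5a2 windows one held the GATA letters (2.30% of all windows) and the other the C/EBP letters (10.8%), and the Onecut1 window held TGACGT (7.51%). These matches are descriptions of letters, near the share found across all genes.

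At E8.5 the factors other than Hhex were low, and by E10.5 all 10 were above both E8.5 libraries in liver and in ventral pancreas. The median level of the 10 was 2.11 FPKM in foregut and 1.27 in medial foregut, and at E10.5 it was 23.4 (liver), 17.3 (ventral pancreas) and 8.06 (dorsal pancreas). Of the 10, 1 reached 5 FPKM in each E8.5 library (Hhex in both), while 10 did in liver, 9 did in ventral pancreas and 6 did in dorsal pancreas. Foxa3 at 5.49 FPKM ranked at percentile 35.0 of named loci in dorsal pancreas, and Onecut1 at 4.45 FPKM at percentile 33.9 in foregut. In liver the gene Hlx at 4.73 FPKM ranked at percentile 37.9, and in ventral pancreas Apoc2 at 4.66 FPKM at percentile 30.8. Most named loci thus stood above these levels, so 6 of 10 in dorsal pancreas is not more than among loci in general. The highest library was liver for 5 factors (Hnf4a, Cebpa, Creb3l3, Foxa3 and Prox1) and ventral pancreas for the other 5 (Hhex, Onecut1, Onecut2, Nr5a2 and Lhx2). Among all named loci 23.4% were highest in liver and 27.5% in ventral pancreas. The lowest library was medial foregut for 7 factors and dorsal pancreas for Hhex, Creb3l3 and Lhx2. The share of all named loci lowest in each library was not computed.

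**Figure D1:**
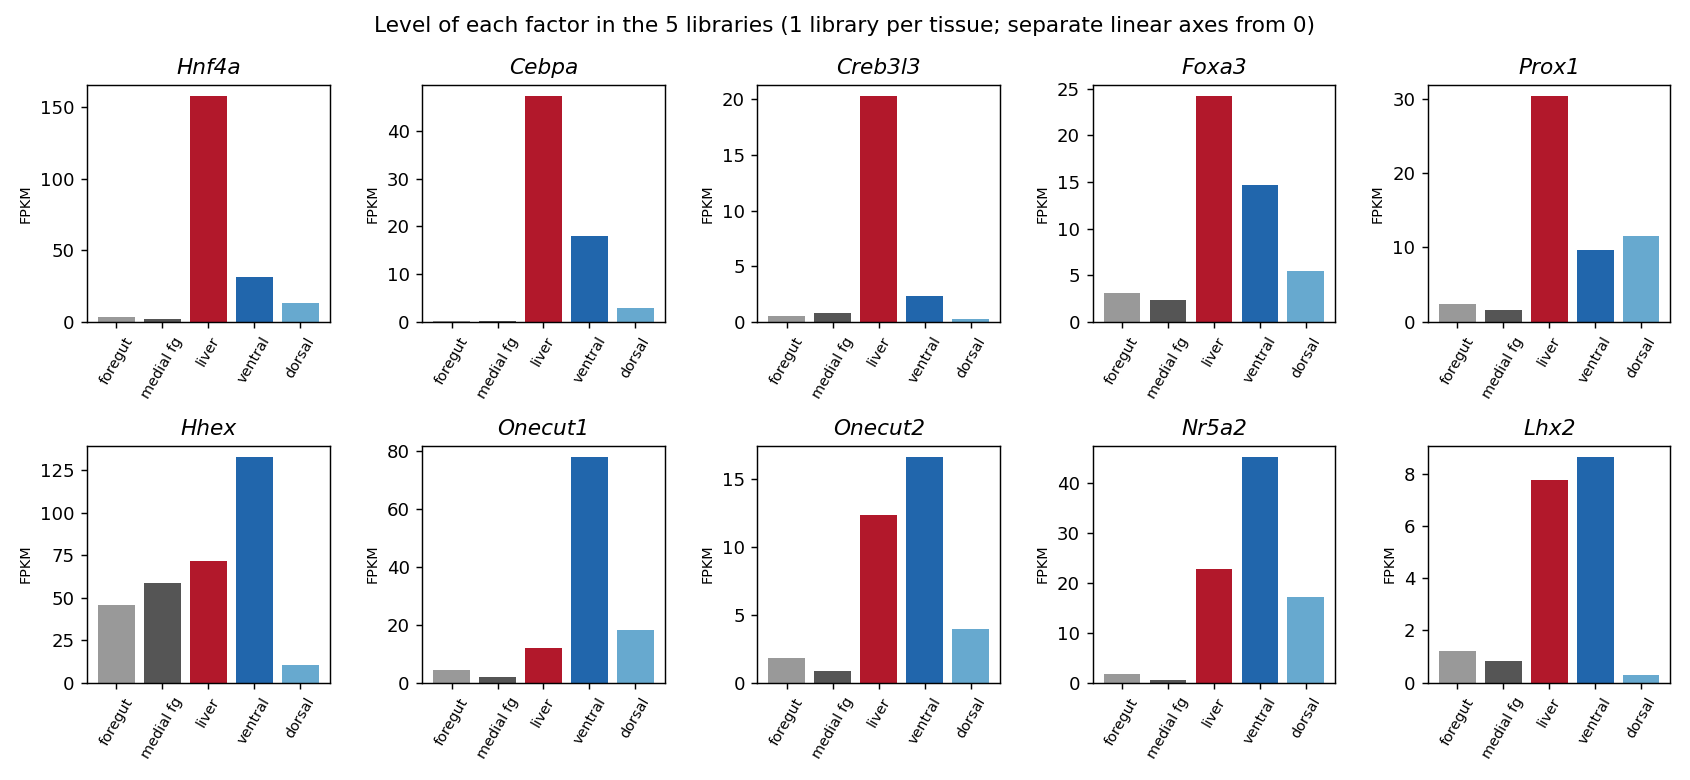
Bars give the FPKM of each factor in the 5 libraries, 1 library per tissue, on a separate linear axis from 0 for each gene (medial fg is medial foregut, ventral and dorsal the pancreatic libraries). In the upper row the liver bar is the tallest, and in the lower row the ventral pancreas bar; Hhex is the only factor with a tall bar at E8.5.

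Differences between libraries are given as differences of log2(FPKM + 1), which understates the change of low genes. To be counted as higher or lower, a gene had to differ by at least 2 on this scale, which is 4 times in FPKM + 1, with at least 5 FPKM in the higher library. Comparisons with the E8.5 stage required this against both libraries. Comparisons that share a library are not independent of each other.

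Of the factors whose highest library was liver, Hnf4a had the highest level. Hnf4a is a nuclear receptor that hepatocytes need to differentiate and to express apolipoprotein and clotting genes (chromosome 2, 163332558 to 163398641 in the table's mm9 coordinates). It stood at 3.30 FPKM in foregut and 2.30 in medial foregut, and the E10.5 values were 157.5 (liver), 31.3 (ventral pancreas) and 12.95 (dorsal pancreas). Liver was thus 5.03 times ventral and 12.2 times dorsal pancreas, and even dorsal pancreas was above both E8.5 libraries. Its rank in the library went from percentile 29.0 of named loci in foregut to 97.1 in liver. The annotated antisense gene Hnf4aos overlaps it, and without strand information the reads cannot be told apart. Its paralog Hnf4g stood at 2.67 FPKM (liver), 1.94 (ventral) and 0.837 (dorsal pancreas).

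Cebpa, the C/EBP factor that activates albumin and metabolic genes in hepatocytes, was close to the bottom of the table at E8.5 (chromosome 7, 35903625 to 35906977). It stood at 0.282 FPKM in foregut and 0.111 in medial foregut, and the E10.5 values were 47.3 (liver), 18.04 (ventral pancreas) and 2.82 (dorsal pancreas). The E10.5 libraries were ordered liver, ventral, dorsal, and each exceeded both E8.5 libraries. The difference from the E8.5 libraries was at least 5.23 (liver), 3.89 (ventral) and 1.58 (dorsal pancreas). Cebpg, a C/EBP protein that mainly dimerises with other leucine zipper factors, lay between 5.25 and 8.81 FPKM in all libraries; its locus covers 1420% of the annotated span. Of the summed FPKM of this pair, Cebpa made up 4.71% in foregut and 2.07% in medial foregut, and 84.3% (liver), 68.2% (ventral) and 28.7% (dorsal pancreas) at E10.5. Cebpb and Cebpd were looked for by name and not found among the named loci, so these shares leave them out. The annotated antisense gene Gm45091 overlaps Cebpa, with the same limit as for Hnf4a.

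Creb3l3 had the lowest level relative to liver of the 10 factors in both pancreatic libraries. It encodes a factor tethered to the endoplasmic reticulum that is released by cleavage and acts on genes of lipid metabolism and the acute phase (chromosome 10, 80546501 to 80561619). It stood at 0.506 FPKM in foregut and 0.801 in medial foregut, and the E10.5 values were 20.3 (liver), 2.36 (ventral pancreas) and 0.244 (dorsal pancreas). Only liver exceeded 5 FPKM, and dorsal pancreas lay below both E8.5 libraries. Liver minus ventral pancreas was 2.66, or 1.78 with a pseudocount of 5 FPKM, and liver minus dorsal pancreas 4.10.

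Foxa3, the forkhead factor of the endoderm that appears latest of its group and sustains hepatic glucose genes, graded from liver to dorsal pancreas (chromosome 7, 19588308 to 19609376). It stood at 3.14 FPKM in foregut and 2.38 in medial foregut, and the E10.5 values were 24.2 (liver), 14.7 (ventral pancreas) and 5.49 (dorsal pancreas). Its differences between the buds stayed under the size rule, at 0.69 for liver minus ventral and 1.96 for liver minus dorsal pancreas, the latter reaching 2.16 under median-ratio scaling. The table gives the same interval to Irf2bp1 on the opposite strand, and reads of both may be mixed where they overlap. Irf2bp1 stood between 16.4 and 25.8 FPKM in all libraries.

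Prox1, a homeobox factor that hepatoblasts need to leave the bud and that also marks lymphatic endothelium, was highest in liver and alike in both pancreatic libraries (chromosome 1, 191941750 to 192041269). It stood at 2.41 FPKM in foregut and 1.65 in medial foregut, and the E10.5 values were 30.3 (liver), 9.66 (ventral pancreas) and 11.5 (dorsal pancreas). It was the only one of the 10 whose level was higher in dorsal than in ventral pancreas, by 0.23 on the log2 scale. The locus has the plus strand and covers 189% of the annotated span of Prox1, which is on the minus strand and overlaps the plus-strand gene Prox1os. Which of these the reads came from cannot be told. Of 9 endothelial markers all were found, with sums of 84.3 FPKM (liver), 28.2 (ventral) and 57.4 (dorsal pancreas); none was at 0, and their part in the Prox1 difference was not tested.

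Of the factors whose highest library was ventral pancreas, Hhex had the highest level and was the only one already abundant at E8.5. Hhex is a homeobox gene that ventral endoderm needs to form the liver bud and the ventral pancreas (chromosome 19, 37504002 to 37515236). It stood at 45.7 FPKM in foregut and 58.5 in medial foregut, and the E10.5 values were 71.2 (liver), 132.7 (ventral pancreas) and 10.6 (dorsal pancreas). Ventral pancreas was 12.5 times dorsal pancreas and 1.86 times liver, and dorsal pancreas was below every other library. In medial foregut it ranked at percentile 90.5 of named loci, while the other 9 factors there ranked at percentile 24.6 or lower. Hhex is also expressed in endothelium, for which the sums of markers are given above. The part of these cells in the Hhex levels was not tested. The locus covers 189.7% of the annotated span.

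Onecut1, known as HNF6, was the only factor counted as lower in liver than in ventral pancreas. It acts in hepatoblasts, in bile duct cells and upstream of the endocrine factor Neurog3 in the pancreas (chromosome 9, 74709719 to 74744389). It stood at 4.45 FPKM in foregut and 2.12 in medial foregut, and the E10.5 values were 11.9 (liver), 78.0 (ventral pancreas) and 18.3 (dorsal pancreas). Ventral pancreas was 6.57 times liver and 4.26 times dorsal pancreas, and liver was the lowest of the buds. The ventral minus dorsal difference of 2.03 was just past the size rule and became 1.95 with libraries rescaled to the same total. The locus overlaps an annotated gene of the same strand, Gm20649, with which reads may be shared.

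Onecut2, a paralog that acts with Onecut1 in hepatoblasts and in pancreas, stood at 1.80 FPKM in foregut and 0.878 in medial foregut, and the E10.5 values were 12.4 (liver), 16.7 (ventral pancreas) and 3.94 (dorsal pancreas). Liver and ventral pancreas were the high libraries. Its locus (chromosome 18, 64499579 to 64500178) covers only 0.984% of the annotated span, so the value describes a small piece of the gene. Onecut3, the third paralog, at a locus of 102% of its annotated span, stood at 0.195 and 0.0948 FPKM at E8.5, and at 14.0 (liver), 24.1 (ventral) and 6.31 (dorsal pancreas) at E10.5.

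Nr5a2, a nuclear receptor that regulates bile acid and cholesterol genes in liver and digestive enzyme genes in the pancreas, was present in all buds (chromosome 1, 138738719 to 138857373). It stood at 1.65 FPKM in foregut and 0.531 in medial foregut, and the E10.5 values were 22.7 (liver), 45.1 (ventral pancreas) and 17.1 (dorsal pancreas). It was the only factor counted as higher in dorsal pancreas than in both E8.5 libraries, with a difference of at least 2.77; with libraries rescaled to the same total Prox1 (2.12) and Cebpa (2.20) also passed. The difference was at least 3.16 in liver and 4.12 in ventral pancreas.

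Lhx2, a LIM homeobox gene known from the mesenchyme and stellate cells of the liver, was low throughout (chromosome 2, 38206593 to 38225256). It stood at 1.20 FPKM in foregut and 0.844 in medial foregut, and the E10.5 values were 7.75 (liver), 8.65 (ventral pancreas) and 0.284 (dorsal pancreas). Annotated antisense genes, Gm13584 and Gm27197, overlap it. Liver and ventral pancreas were close, and the sign of their difference, -0.14, became 0.08 under median-ratio scaling. Of 6 other stellate cell markers 5 were found and none was at 0; their sum was 279 FPKM (liver), 193 (ventral) and 42.0 (dorsal pancreas). In liver most of that sum was Reln, a secreted matrix protein, at 261, 103 and 1.47 FPKM, and in ventral pancreas Reln and Hgf (84.6). Counted with Lhx2, 3 of the 6 found stellate cell genes were higher and 2 lower in ventral than in dorsal pancreas. Over all named loci these shares were 0.913% and 0.768%. Des was among the lower, at 6.86 (liver), 2.40 (ventral) and 20.95 FPKM (dorsal pancreas). Of 8 other markers of mesothelium and septum transversum 6 were found and none was at 0, with sums of 62.4, 29.2 and 31.3 FPKM. The part of such cells in the Lhx2 levels was not tested.

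Liver and ventral pancreas are neighbours in origin. Hnf4a and Creb3l3 were higher in liver, Onecut1 was lower, and 7 of the 10 were neither. Over all named loci 1.24% were higher and 2.76% lower. The median difference of the 10 was 0.27, against -0.17 over all named loci. Without the size rule 5 were positive and 5 negative, against 38.8% and 61.1% of named loci. The sum of 8 epithelial genes, all found and none at 0, was 380 FPKM in liver and 1334 in ventral pancreas, and its part in these differences was not tested. Median-ratio scaling moved the median of all named loci by 0.19 in this comparison and by 0.17 for liver minus dorsal pancreas, and it left the 3 counted factors in place.

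Against dorsal pancreas, liver was higher for Hnf4a, Cebpa, Creb3l3, Hhex and Lhx2 and lower for none of the 10, where 2.12% of named loci were higher and 3.35% lower. The median difference was 2.30, against -0.16 over all named loci. Without the size rule 9 of 10 were positive and Onecut1 had -0.58, against 38.9% positive and 61.1% negative among named loci. Lhx2 had 1.27 with a pseudocount of 5 FPKM. Rescaling to the same total moved the split of all counted loci from 262 higher and 414 lower to 293 and 744. In ventral against dorsal pancreas, Cebpa, Hhex, Lhx2 and Onecut1 were higher and none was lower, against 0.913% higher and 0.768% lower among all named loci. The median was 1.64 against 0.01 over all. Without the size rule 9 were positive and Prox1 negative, against 51.7% and 48.2% of named loci. A pseudocount of 5 FPKM left Hhex of these 4, with 1.56 for Cebpa, 1.37 for Lhx2 and 1.83 for Onecut1. Of 13 endocrine genes 10 were found, none at 0 in either library, with sums of 441 FPKM in ventral and 2324 in dorsal pancreas; their part in these differences was not tested.

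The comparison of stages used the E8.5 libraries as the earlier stage. In liver 7 factors were higher than in both E8.5 libraries and none lower, against 2.29% and 2.12% of named loci. These were Hnf4a, Cebpa, Creb3l3, Foxa3, Nr5a2, Onecut2 and Prox1, while Hhex, Lhx2 and Onecut1 were neither. Lhx2 was just under the size rule at 1.99. It passed with libraries rescaled to the same total (2.17), median-ratio scaling (2.10) and a pseudocount of 0.1 FPKM (2.59), and had 1.04 with a pseudocount of 5 FPKM. All 10 were positive against both E8.5 libraries, as were 38.2% of named loci, while 50.8% were negative. With a pseudocount of 5 FPKM Foxa3 had 1.84 and Onecut2 1.35. In ventral pancreas 6 were higher (Hnf4a, Cebpa, Lhx2, Nr5a2, Onecut1 and Onecut2) and none lower, against 1.96% and 1.49% of named loci. Again all 10 were positive, against 52.7% of named loci with 34.0% negative, and with a pseudocount of 5 FPKM Lhx2 had 1.14 and Onecut2 1.67. In dorsal pancreas Nr5a2 was higher and Hhex lower, against 1.45% and 1.18%. Without the size rule 7 were positive and 3 negative, against 52.1% and 32.2% of named loci. The Hhex difference there was just past the size rule at -2.004, and it was -1.997 with libraries rescaled to the same total and -1.70 with a pseudocount of 5 FPKM, where Nr5a2 had 1.73. These 3 comparisons share the E8.5 libraries. The large cardiac content of both E8.5 libraries, given above, lies beside every one of these differences, and its part in them was not tested.

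Between foregut and medial foregut none of the 10 was counted, where 0.0404% of named loci were higher and 0.00808% lower. Without the size rule foregut was above medial foregut for 8 of 10 and below it for the rest, against 50.4% and 49.4% of named loci, and the median difference was 0.33. Nr5a2, at 3.11 times, and Onecut1, at 2.10 times, had ratios above 2, as did Cebpa and Onecut2, all at low values. Hhex went the other way, at 0.781 times, and Creb3l3 at 0.632. The sums of the cardiomyocyte list were higher in medial foregut, as given above, and those of 10 found neural and neural crest genes, of 11 listed, were 109 FPKM in foregut and 43.2 in medial foregut.

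Shares within a family do not depend on scaling between libraries, and in liver they differed from those in the other libraries. Foxa1 and Foxa2 are the pioneer factors that make endoderm competent to form liver and pancreas. Foxa1, Foxa2 and Foxa3 made up 36.9%, 31.5% and 31.7% of their sum in liver, nearly equal parts. In ventral pancreas Foxa2 made up 62.5% and Foxa3 20.0%, and in dorsal pancreas 73.6% and 12.2%. At E8.5 Foxa3 made up 7.54% in foregut and 7.13% in medial foregut, with Foxa1 at 48.6% and 55.8%. The Foxa1 locus covers 3146% of its annotated span, so its FPKM may hold more than that gene. Foxa2 stood 0.993 times as high as Foxa3 in liver, 3.12 times in ventral and 6.03 times in dorsal pancreas.

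Onecut1 made up 31.0% of the Onecut sum in liver, against 65.7% in ventral pancreas, 64.1% in dorsal pancreas, 69.0% in foregut and 68.6% in medial foregut. Its share was therefore alike in all libraries other than liver. The ratio of Onecut1 to Onecut3, which leaves out the partial Onecut2 locus, was 0.848 (liver), 3.24 (ventral) and 2.90 (dorsal pancreas), and 22.9 and 22.4 in the E8.5 libraries. Among the 4 Creb3 family genes found, Creb3l3 made up 58.0% (liver), 14.1% (ventral) and 1.59% (dorsal pancreas), with 2.70% and 2.95% in the E8.5 libraries. Creb3l2, a widely expressed relative, led the family in every other library, with 44.4% in ventral and 64.1% in dorsal pancreas.

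**Figure D2:**
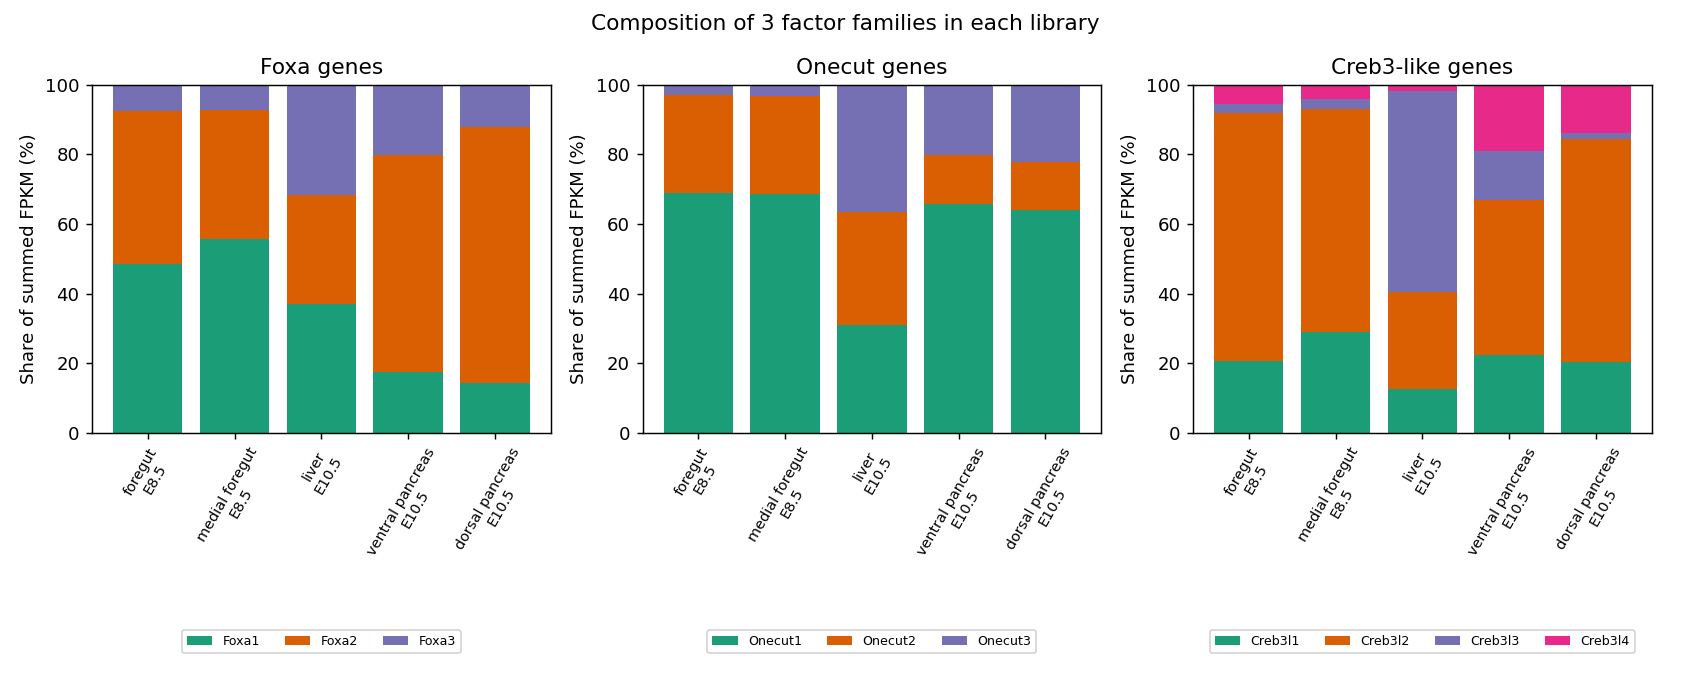
Stacked bars give each gene's share (%) of the summed FPKM of its family in the 5 libraries. In liver the Foxa genes are nearly equal, Onecut1 makes up 31.0% of its family and Creb3l3 takes 58.0% of its own.

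Relative to Onecut1, Hnf4a and Cebpa were higher in liver than in both pancreatic libraries. Hnf4a stood at 13.3 times the level of Onecut1 in liver, 0.402 times in ventral and 0.708 times in dorsal pancreas. Cebpa stood at 3.98 times Onecut1 in liver, 0.231 times in ventral and 0.154 times in dorsal pancreas. Hnf4a relative to Hhex was 2.21 (liver), 0.236 (ventral) and 1.22 (dorsal pancreas). Hnf4a thus exceeded Hhex in liver and dorsal pancreas and lay below it in ventral pancreas.

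The levels of the factors in ventral pancreas were set against their liver levels, beside those of hepatoblast genes, a list of genes high in liver. As a percentage of the liver FPKM, the 10 factors in ventral pancreas ranged from 11.6% for Creb3l3 to 657% for Onecut1, with a median of 86.1%. The 14 hepatoblast genes ranged from 6.65% for Kng1 to 73.5% for Ttr, with a median of 12.4%; the table gives Ttr the strand opposite to its annotation. In that list Alb, serum albumin, stood at 9.23% and Apoa1 at 7.42%. Creb3l3, Hnf4a (19.9%), Prox1 (31.9%) and Cebpa (38.2%) lay within the range of the hepatoblast genes, as did Foxa3 (60.6%), and the other 5 factors lay above 100%. None of the hepatoblast genes exceeded 100%, which goes with their choice as genes high in liver. Over all named loci 61.1% were lower in liver than in ventral pancreas, so 5 of 10 factors above 100% is not more than among loci in general. In dorsal pancreas the medians were 18.8% for the factors and 1.37% for the hepatoblast genes. No test of this contrast was run, and the part of liver cells in the ventral pancreas library was not tested.

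**Figure D3:**
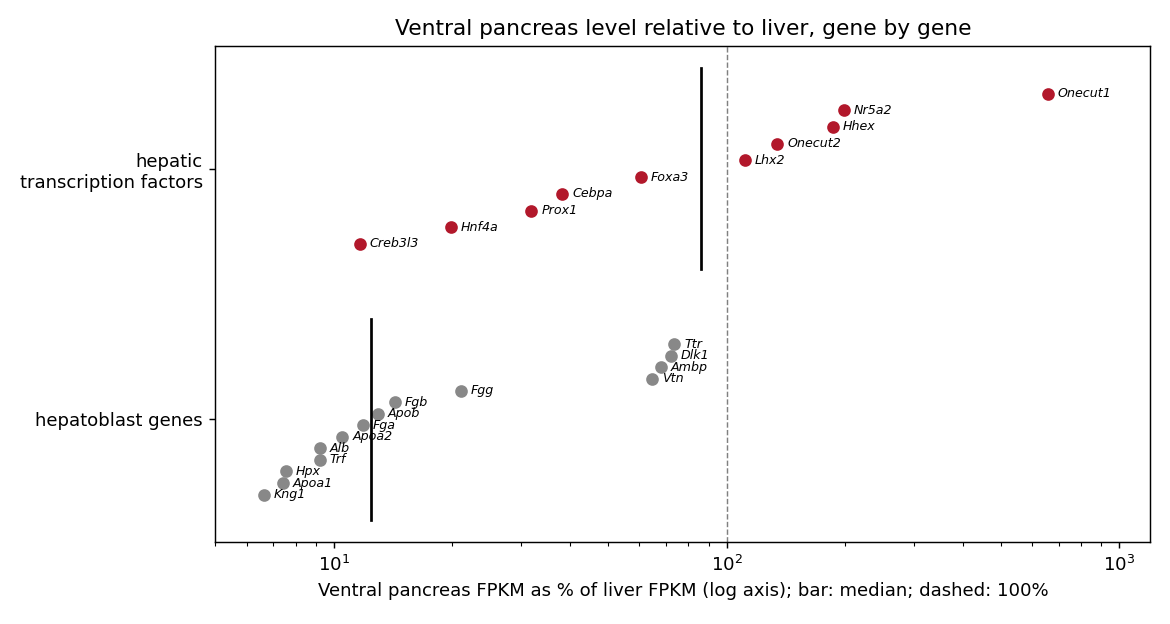
Points give the ventral pancreas FPKM as a percentage of the liver FPKM on a log axis for the 10 factors and for 14 hepatoblast genes, with bars at the medians of 86.1% and 12.4%. The factors at 11.6% to 60.6% overlap the hepatoblast genes, and 5 factors lie above 100%.

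Known targets of the factors were read from short lists. Of 24 textbook targets of Hnf4a 14 were found. In liver 10 were higher than in ventral pancreas, as were 1.24% of all named loci, and 11 higher than in dorsal pancreas, as were 2.12%. None was lower in either comparison, against 2.76% and 3.35% of all named loci. The median differences were 2.66 and 4.76. Apoa2, an apolipoprotein gene, differed by 3.24 and 9.18, and F2, the prothrombin gene, by 2.98 and 5.50. Of these 14 genes 7 were higher in ventral than in dorsal pancreas and none lower, against 0.913% and 0.768% of all named loci. Among the 7 was Mttp, the lipid transfer gene of lipoprotein assembly, at 2.31. Of 11 Cebpa targets 4 were found, and Alb and the glycogen synthase gene Gys2 were higher in liver than in both pancreatic libraries. Of 10 Creb3l3 targets 2 were found: Apoc2 was higher in liver than in both, and Apoa5 stood at 1.71, 1.78 and 0.207 FPKM in liver, ventral and dorsal pancreas. Apoa2 and Alb are also on the hepatoblast list, and the Hnf4a list holds clotting and lipoprotein genes that hepatocytes express. The direction of these target lists between liver and pancreas therefore goes with the choice of genes. Their counts are description only. Whether any target followed its factor was not tested.

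Targets of the factors with their highest level in ventral pancreas were split between organs. Of 12 Nr5a2 targets 6 were found. Apoa1 and Apom, for lipoprotein components, were higher in liver than in both pancreatic libraries. Those lower in liver than in both included Cpa1, a carboxypeptidase gene of acinar cells. Cpa1 stood at 0.229 FPKM (liver), 27.0 (ventral) and 30.7 (dorsal pancreas). Of 10 targets of Onecut factors 8 were found, and 0 were higher in liver. Over all named loci 1.24% were higher in liver than in ventral and 2.12% than in dorsal pancreas, so 0 of 8 is near the general share. Those lower in liver included Pdx1 and Spp1 against both pancreatic libraries and Neurog3 against dorsal pancreas. Onecut2 is itself in that list. Pdx1 and Cpa1 are also on the list of pancreatic progenitor genes, Neurog3 on that of endocrine genes and Apoa1 on that of hepatoblast genes. Spp1 is also on a list of duct markers. The direction of such markers between liver and pancreas goes with the choice of genes, and their relation to the factors was not tested.

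Of 34 other listed regulators of hepatic development 29 were found. Against ventral pancreas 0 were higher in liver, where 1.24% of all named loci were. Against dorsal pancreas 2 were higher, Tbx3 and Nr1h3, and 0 lower, where 2.12% and 3.35% of all named loci were. Counts this small say little about a list of this length. The median differences were -0.28 and 0.26. Tbx3, a T-box factor that hepatoblasts need to proliferate and that represses biliary fate, stood at 31.5 FPKM (liver), 13.7 (ventral) and 3.01 (dorsal pancreas). Nr1h3, the oxysterol receptor LXR alpha, stood at 6.89, 1.04 and 0.295 FPKM in the same order. Between the pancreatic libraries only Hlx, a homeobox gene of gut and liver mesenchyme, was counted, at 1.73 FPKM (ventral) and 15.6 FPKM (dorsal pancreas). Of 12 mesenchymal genes 11 were found and none was at 0 in either library; their sums were 59.7 and 240.1 FPKM, and their part in the Hlx difference was not tested. Against the E8.5 stage only Esrrg, an orphan nuclear receptor, was counted in liver, as lower, and only Hlx in dorsal pancreas, as higher.

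For each factor the 3 genes with the most similar profile were taken among 8312 loci with a single gene name and at least 5 FPKM in some library. Likeness was the root mean square difference between the centred log2(FPKM + 1) profiles over the 5 libraries. With 5 points such likeness is description only, and a pseudocount of 0.1 FPKM left 12 of the 30 genes in place. Hnf4a was most like Serpina10, a plasma protease inhibitor (0.28), A1cf, which serves Apob mRNA editing (0.30), and Hgfac, the activator of hepatocyte growth factor (0.32). Cebpa was most like Mmd2 (0.16), Afm, a plasma vitamin E carrier (0.35), and Serpinf1 (0.35). Creb3l3 was most like Acss1 (0.14), Pid1 (0.17) and Ftcd, a folate enzyme of liver (0.17). Foxa3 was most like Lbp, the lipopolysaccharide binding protein (0.11), St8sia3 (0.13) and Rassf6 (0.13). Prox1 was most like Cdhr2 (0.19), Sema4a (0.26) and Tmem176a (0.30).

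Of the factors highest in ventral pancreas, Nr5a2 had a gene of the Onecut family as its closest profile. Nr5a2 was most like Onecut3 (0.30), the iron exporter gene Slc40a1 (0.43) and Kif12 (0.48). Onecut1 was most like Pamr1 (0.38), Prr15l (0.39) and S100a8 (0.40). Onecut2 was most like Pls1 (0.17), Ppp4r4 (0.19) and the chemokine gene Cxcl12 (0.28). Lhx2 was most like the homeobox gene Shox2 (0.23), Tfpi2 (0.38) and Krt20 (0.39). Hhex had the least similar neighbours, Gas6 (0.41), Slc39a5 (0.50) and Pth1r (0.54). Among the 10 factors themselves the closest pairs were Foxa3 with Onecut2 (0.39) and Cebpa with Hnf4a (0.40), and the most distant was Hhex with Nr5a2 (2.09).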

How the data were processed

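Poly(A) RNA libraries, 1 per tissue, were made with random hexamer priming and sequenced in pairs, per the labels' protocols; no strand marking is described. The authors deposited 1 table of FPKM values, per the file headers. TopHat 1.33, Cufflinks 1.3.0 and the mm9 build come from the submitters' processing notes; no source used here describes scaling between libraries. Columns were matched to tissues by the labels' description field. Of 14053 loci, 1678 had no name and entered no comparison.

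Differences, counts, ranks, shares and profile distances were computed with Python 3.11.15, numpy 2.4.6 and pandas 2.3.3. The pseudocount of 1 FPKM and the size rule are those given in the report. Only the counting by the size rule and the search for similar profiles were tried on simulated data. Depth in reads is unknown, so no interval is given. GENCODE M21 (GRCm38) supplied strand and span by name only, since its build differs from mm9. Named genes were the 10 factors, listed regulators and paralogs past the size rule, up to 4 members of each other list, and the 3 most similar genes. Genes added outside this rule are Irf2bp1, Cebpg, Hnf4g, Creb3l2, Apoa5, Kng1, Dlk1 and Ambp, chosen after their values were seen. The 10 factors and the lists were chosen with earlier results of these data known. The alternatives were 2 pseudocounts, 2 scalings, no minimum level and a size rule of 1. Some results for members of the target and regulator lists are not reported here.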

Additional observations from a re-analysis of the deposited data

Results flagged for a closer look

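In 3 of the 10 factors the buds moved in opposite directions from the E8.5 stage: liver and ventral pancreas stood above both E8.5 libraries and dorsal pancreas below both. With 1 library per tissue this difference was not tested. The share of all named loci with this pattern was not computed, so the count of 3 is description only. Hhex stood at 10.6 FPKM in dorsal pancreas, against 45.7 and 58.5 at E8.5. Creb3l3 stood at 0.244 FPKM in dorsal pancreas, against 0.506 and 0.801. Lhx2 stood at 0.284 FPKM there, against 1.20 and 0.844. The last 2 are low values in these 3 libraries.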

How the results depend on the processing

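No paired analysis was possible because each tissue had 1 library, and no library could be left out. Of 70 differences of single factors no counted one changed sign under any of the 6 alternatives, and 1 uncounted one did (Lhx2, given in the report). Counts of factors past the size rule, either direction, were 3 for liver minus ventral pancreas, 5 for liver minus dorsal, 4 for ventral minus dorsal, 0 for foregut minus medial foregut, and 7, 6 and 2 for liver, ventral and dorsal pancreas minus E8.5. With a size rule of 1, which counts smaller differences by construction, liver minus ventral had 5, liver minus dorsal 8, ventral minus dorsal 8 and dorsal minus E8.5 5. A pseudocount of 5 FPKM, which shrinks differences of low genes by construction, left 1 for ventral minus dorsal and 0 for dorsal minus E8.5, and 0.1 FPKM gave 4 for the latter. Counts of all named loci in the same order of comparisons were 496, 676, 208, 6, 545, 427 and 325. They were 1578, 1816, 712, 92, 1402, 1199 and 886 with a size rule of 1, and 143, 233, 60, 1, 221, 149 and 134 with a pseudocount of 5 FPKM. Rescaling to a total of 1000000 gave 760, 1037, 315 and 16 for the comparisons within a stage and 652 and 492 for ventral and dorsal pancreas minus E8.5. For ventral minus dorsal pancreas this gave 149 higher and 166 lower in place of 113 and 95; the cause was not tested. A pseudocount of 0.1 FPKM gave 11 for foregut minus medial foregut.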

Other observations

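A locus without a name lay 6742 bases before the Onecut1 locus on the same strand (chromosome 9, 74695118 to 74702977, mm9). It stood at 0.483 FPKM in foregut and 0.208 in medial foregut, and the E10.5 values were 5.53 (liver), 143 (ventral pancreas) and 22.2 (dorsal pancreas). The order of the 5 libraries was that of Onecut1. In ventral pancreas its level exceeded the 78.0 FPKM of Onecut1 itself. Whether it is a separate transcript or part of Onecut1 cannot be told from the table.

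Around Prox1 lay 7 loci without a name within 60000 bases, and 2 of them had the same interval as Prox1 with no strand. All 7 stood lower in both E8.5 libraries than in any E10.5 library. The highest of them (chromosome 1, 191927116 to 191931362) stood at 0.673 FPKM in foregut and 0.265 in medial foregut, and the E10.5 values were 8.56 (liver), 1.78 (ventral pancreas) and 3.01 (dorsal pancreas). Near Onecut2, at 58348 bases, lay St8sia3, a sialyltransferase gene that is also among the 3 profiles most like Foxa3, at 5.59, 3.63, 32.5, 25.2 and 9.05 FPKM in the same order of libraries. These loci were picked out after their values were seen.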
